A study of Mus musculus with 2 samples.

Results

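The 10 genes described here encode 6 cadherins (Cdh2, Cdh4, Cdh5, Cdh11, Cdh13 and Cdh15) and 4 catenins or catenin relatives (Ctnna1, Ctnnd1, Jup and Ctnnal1). They were chosen by symbol, among 18193 genes that the array's probe sets name singly. Together they have 24 such probe sets. Their transcripts were measured in primary mouse myoblasts, the precursor cells of muscle fibres, from newborn Sv129 animals. Both cultures were grown on laminin and collagen and then held for 4 hours in DMEM containing 2% horse serum. The control culture received nothing else, and the treated culture received Wnt3a at 100 ng/ml, a secreted protein that activates the β-catenin pathway. There was 1 array for each condition, so no difference below has a replicate error or a test. The labels do not say how many animals or cultures each RNA came from.

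Cadherins are transmembrane adhesion proteins that bind cadherins on the neighbouring cell in the presence of calcium. Inside the cell, the tail of a classical cadherin binds p120-catenin near the membrane and β-catenin or plakoglobin further along, and α-catenin links that complex to actin. β-catenin is also the transcriptional effector of Wnt signalling, so the pool at the junction and the pool that enters the nucleus are the same protein. In muscle precursors, N-cadherin and M-cadherin are the best-known cadherins and are associated with the alignment and fusion of myoblasts. The comparison asks whether the transcripts of these junction genes differed after the Wnt3a exposure.

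Promoters were taken by gene symbol from RefSeq's promoter table for GRCm38.p6. Those used here are 5 promoters of 4 of the 10 genes (Cdh15, Ctnnal1, Jup and a pair for Ctnnd1). None was used for Cdh2, Cdh4, Cdh5, Cdh11, Cdh13 and Ctnna1. Promoters of Cdh2 and Ctnna1 were left out beforehand, so their absence here does not show that the table lacks them. The 250 bases before the start are printed for Cdh15, the cadherin that marks the muscle lineage, and for Ctnnal1, whose difference between the arrays was the widest of the 9 measured genes. The Cdh15 window is chr8:122848124-122848373 on the plus strand and the Ctnnal1 window is chr4:56865212-56865461 on the minus strand. Capitals mark matches to the E-box CANNTG, the site type bound by muscle bHLH factors, where N is any base.
Cdh15: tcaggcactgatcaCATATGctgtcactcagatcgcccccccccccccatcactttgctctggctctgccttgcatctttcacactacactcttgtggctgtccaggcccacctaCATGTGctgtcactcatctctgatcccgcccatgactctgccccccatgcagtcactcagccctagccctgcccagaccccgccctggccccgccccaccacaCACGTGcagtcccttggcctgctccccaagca
Ctnnal1: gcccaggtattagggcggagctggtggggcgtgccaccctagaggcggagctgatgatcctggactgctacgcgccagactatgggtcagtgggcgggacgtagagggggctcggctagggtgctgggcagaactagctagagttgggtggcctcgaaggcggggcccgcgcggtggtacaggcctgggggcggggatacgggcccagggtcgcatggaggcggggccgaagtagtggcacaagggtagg

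The Cdh15 window held 3 E-box matches, CATATG from -236 to -231, then CATGTG from -135 to -130, then CACGTG from -32 to -27, counted from the start with -1 as the last base before it. The Ctnnal1 and Jup windows held 0 matches. The upstream of the Ctnnd1 windows held 1, CACATG from -200 to -195, and the other held 0. At least 1 match was present in 66.2% of all 32851 promoters of the same length. The E-box CAGCTG, which is one spelling of CANNTG and the one MyoD prefers, was in none of the 5 windows and in 13.0% of all promoters. The words of the TCF/LEF factors that work with β-catenin, searched as CTTTGAA or CTTTGAT or CTTTGTA or CTTTGTT, were also in none of the 5 and in 14.8% of all. Both strands were searched in each case. These are matches of letters and say nothing of binding.

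Each deposited value is the brightness of a probe set, a group of short probes read as 1 number. Levels are given as log2(intensity + 1), and a difference is the Wnt3a level minus the control level on that scale. Probe sets bind with different strength, so a brighter probe set is not a more abundant transcript. Where marker genes are called brightest, or the log2 levels of a marker list are summed, this is said of probe sets and not of amounts of RNA. A level of 6 (an intensity of 63) served as a floor, and a gene counted as measured where its brightest probe set reached that floor on at least 1 array. This held for 11397 genes. Over all probe sets the differences had a median of 0. The 42 spike-in probe sets, which report RNA added in fixed amounts, were all lower on the Wnt3a array, from -0.40 to -0.09 with a median of -0.19. Scaling on them would add 0.19 to every difference printed below, so negative differences smaller than that would change sign. The 3′ minus 5′ level of the Gapdh control probe sets, a measure of RNA integrity, was -0.02 in the control and -0.04 with Wnt3a, and that of Actb was 0.56 and 0.60.

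No cadherin or catenin differed by 1.5-fold between the arrays on its brightest probe set. Of the 10 genes 9 were measured, and Cdh5 was below the floor on both arrays. With the deposited scaling 4 were higher with Wnt3a (Cdh13, Cdh15, Ctnna1 and Jup) and 5 lower (Cdh2, Cdh4, Cdh11, Ctnnd1 and Ctnnal1), whereas all 9 were higher when scaled on the spike-ins. Their differences ran from -0.18 to 0.09 with a median of -0.033, beside -0.0057 over all measured genes. None of the 9 passed 2-fold in either direction, against a background of 0.316% of measured genes. None passed 1.5-fold, against a background of 1.23% (140 of 11397 genes, 101 higher and 39 lower, or 222 and 17 when scaled on the spike-ins). A share of 0 of 9 is close to either background, so it is no result about the cadherins and catenins. The median size of the difference was 0.043 for the 9 genes and 0.085 for all measured genes. For 8 of the 9 the size was under 0.1, as it was for 56.4% of all measured genes.

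**Figure D1:**
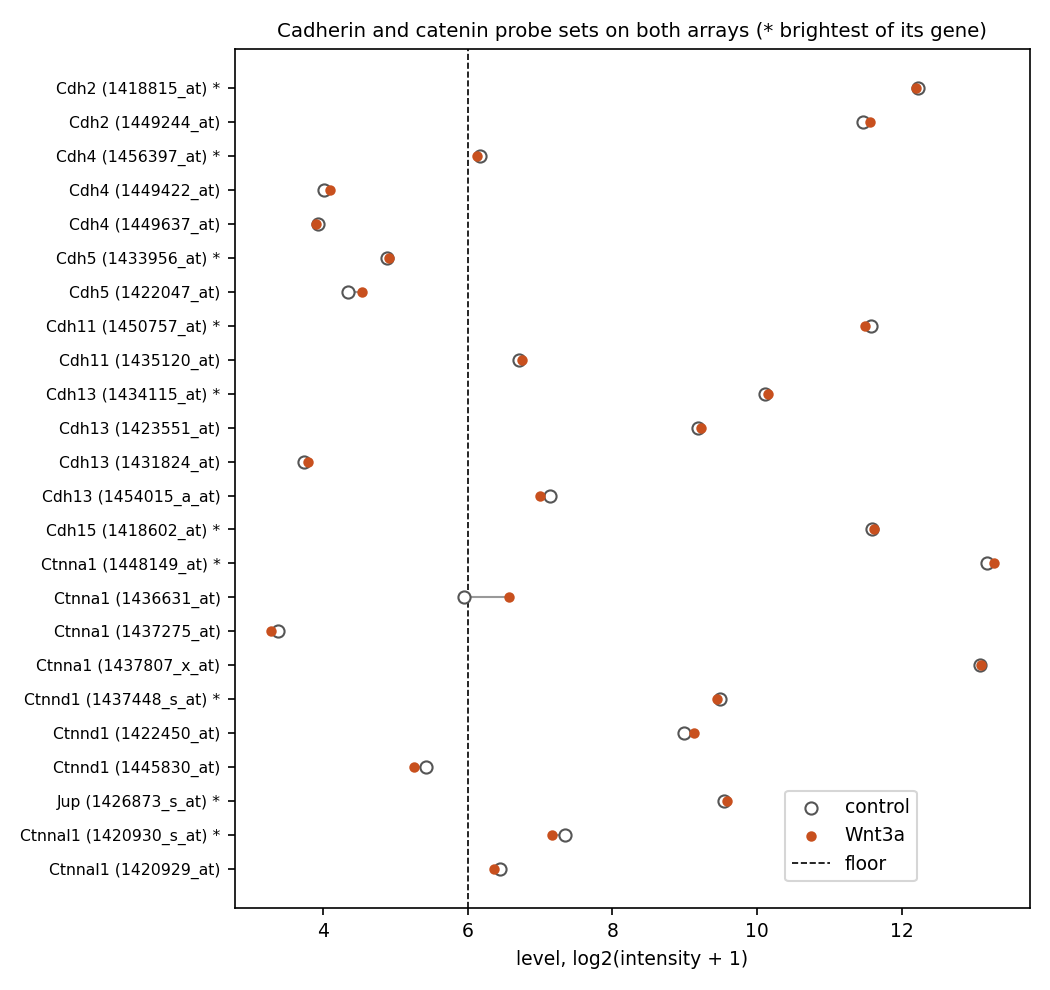
Level of each of the 24 cadherin and catenin probe sets, as log2(intensity + 1), on the control array (open circles) and the Wnt3a array (filled circles), with the floor of 6 dashed and the brightest probe set of each gene starred. The circles overlap or nearly touch in most rows, and the widest gap is that of a dim Ctnna1 probe set, from 5.95 to 6.58.

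Both cadherins that are best known in muscle were well above the floor and nearly level between the arrays. Cdh15, which encodes M-cadherin, stood at 11.59 in the control and 11.61 with Wnt3a on its 1 probe set. The difference was 0.02, or 1.02-fold. Cdh2, which encodes N-cadherin, stood at 12.23 and 12.19 on its brightest probe set, a difference of -0.03. Its second probe set went the other way, from 11.47 to 11.56, a difference of 0.09. So the sign for Cdh2 depends on the probe set read, and the mean of both was 0.03. Scaled on the spike-ins, Cdh15 differed by 0.21 and Cdh2 by 0.16.

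The cadherins of mesenchymal and other tissues also differed little. Cdh11 encodes cadherin-11, or OB-cadherin, which is typical of osteoblasts and mesenchymal cells. It stood at 11.58 in the control and 11.49 with Wnt3a on its brightest probe set, a difference of -0.08 that became 0.11 when scaled on the spike-ins. Its dimmer probe set differed by 0.04 (6.71 and 6.75), again in the other direction. Cdh13 encodes T-cadherin, which is held in the membrane by a lipid anchor, has no cytoplasmic tail and therefore does not bind catenins. It stood at 10.11 and 10.15 on its brightest probe set, a difference of 0.03, and a second bright probe set gave 0.04 (9.19 and 9.23). One more, which can match several transcripts, gave -0.15 (intensities of 140.2 and 126.6), and the mean over all its probe sets was -0.0013. Neither gene differed by more than 0.15 in size on any probe set at the floor.

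Cdh4 was near the floor and Cdh5 below it. Cdh4, the R-cadherin gene known from retina and brain, was just above it at 6.17 in the control and 6.13 with Wnt3a, a difference of -0.04. Its other probe sets lay near 4 on both arrays and gave 0.09 and -0.03. The Cdh4 difference became 0.0066 when its probe sets were averaged and 0.15 when scaled on the spike-ins. Cdh5, the VE-cadherin gene of endothelial junctions, stood at 4.89 and 4.92 on its brightest probe set and at 4.34 and 4.54 on the other, so no fold is given for it. Of 14 other endothelial marker genes 4 reached the floor, 1 higher, 2 lower and 1 level. Of the 3 brightest, Egfl7 was at 7.81 in the control and 7.74 with Wnt3a and Flt1 at 6.99 and 7.02. Tek, which encodes the angiopoietin receptor, was at 6.16 and 5.34, a difference of -0.82 and at least 1.12-fold lower when read against the floor. The levels of the 4 measured genes summed to 27.0 and 26.2. Most of that gap was Tek, which reached the floor on the control array only, and the rest differed by -0.07 to 0.03. In bulk RNA fewer cells of a type and less RNA per cell cannot be told apart.

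Ctnna1 was slightly higher with Wnt3a on its bright probe sets, and 1 dim probe set showed a wider gap. It encodes αE-catenin, the link from the cadherin complex to actin. The brightest probe set stood at 13.18 in the control and 13.27 with Wnt3a, an intensity of 9280 and 9850. The difference was 0.09, or 0.28 when scaled on the spike-ins. A second bright probe set, which can match several transcripts, stood at 13.08 and 13.10. A dim probe set crossed the floor between the arrays, with 5.95 in the control and 6.58 with Wnt3a, and was at least 1.49-fold higher when read against the floor (0.63 as measured). That was 1 of the 17 cadherin and catenin probe sets at the floor and the only one of them to pass 1.5-fold as measured, and 0.774% of all 19760 single-gene probe sets at the floor were at least 1.5-fold higher. The last, far below the floor, gave -0.09. The bright probe sets, at over 13 on both arrays, do not show the difference seen on the dim one, and the position of each on the transcript was not used here.

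Ctnnd1 and Jup, the catenins that bind the cadherin tail directly, stood close on both arrays. Ctnnd1 encodes p120-catenin, which keeps cadherins at the cell surface. On its brightest probe set, which can match several transcripts, it stood at 9.49 and 9.44, a difference of -0.05. Its other probe set at the floor, which is not marked as matching several transcripts, stood at 8.99 and 9.13, a difference of 0.14, so the sign turns when probe sets of several transcripts are left out. The Ctnnd1 difference was also 0.14 when scaled on the spike-ins. Jup encodes plakoglobin, a close relative of β-catenin found in adherens junctions and desmosomes. It stood at 9.54 in the control and 9.58 with Wnt3a on its 1 probe set, a difference of 0.04. Scaled on the spike-ins, Jup differed by 0.23.

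Ctnnal1 showed the widest difference of the 9 measured genes, and it was lower with Wnt3a on both of its probe sets. It encodes α-catulin, a relative of α-catenin and vinculin. The brightest probe set, which can match several transcripts, stood at 7.35 in the control and 7.17 with Wnt3a, a difference of -0.18 or 1.13-fold lower. The other stood at 6.45 and 6.37, a difference of -0.08. A difference at least as large in size was found in 19.8% of all measured genes and in 25.3% of the 3517 genes within 1 log2 unit of its brightness. Scaled on the spike-ins the difference was 0.01.

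**Figure D2:**
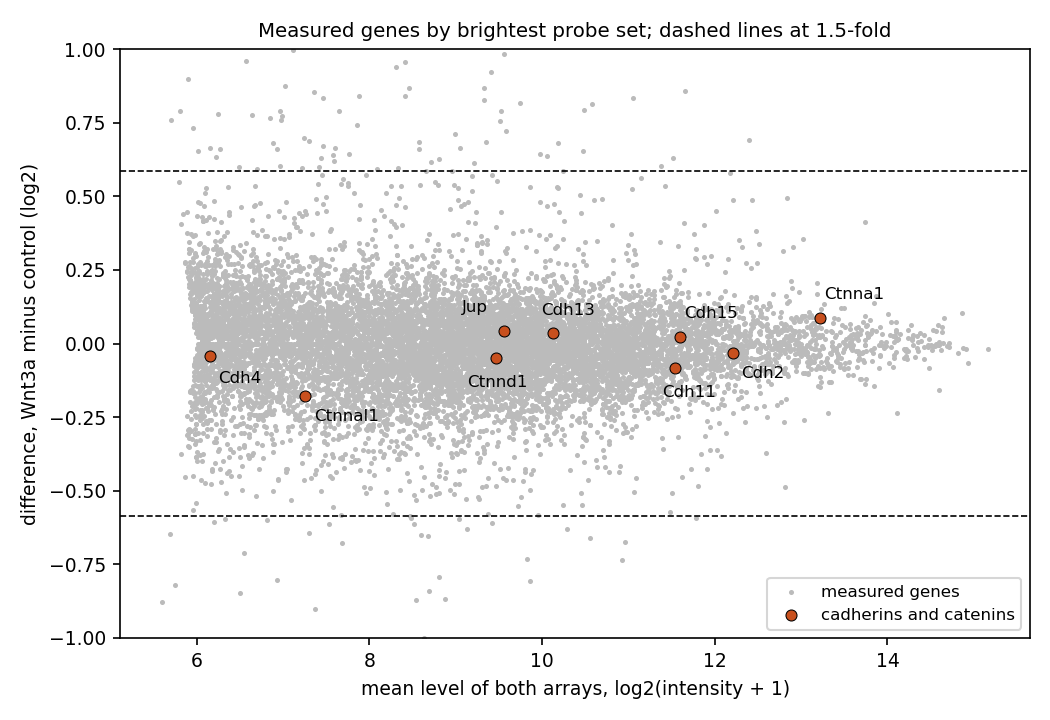
Difference between the arrays (Wnt3a minus control, log2) against the mean level of both arrays for measured genes by their brightest probe set (grey) and for the 9 measured cadherins and catenins (filled and named), with dashed lines at 1.5-fold. The 9 named genes lie between -0.18 and 0.09, inside the grey cloud. The 36 genes past 2-fold are outside the plotted range.

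The differences were also read against genes of like brightness, since dim probe sets scatter more. For Cdh4, near the floor, the central 95% of the 2316 genes within 1 log2 unit lay between -0.36 and 0.42. For Ctnna1, near the top of the range, that of 601 genes lay between -0.19 and 0.21. All 9 measured genes were inside the corresponding range. Ctnna1 was the nearest of the 9 to the rarer sizes, with 24.0% of genes of its brightness differing at least as much, followed by Ctnnal1 with 25.3% and Cdh11 with 42.0%. For the other 6 the share was between 68.6% and 81.3%.

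Probe sets of 1 gene are the only repeat reading in these arrays, and they show scatter between probes, not between cultures. Of the 6 genes with at least 2 probe sets at the floor, Ctnna1 and Ctnnal1 had probe sets of 1 sign, and Cdh2, Cdh11, Cdh13 and Ctnnd1 had both signs. Over all 5084 such genes, 54.7% had 1 sign. The pooled SD of the differences between probe sets of a gene was 0.19 for these 6 genes, with 0.34 for Ctnna1 alone and 0.07 to 0.13 for the other 5, beside 0.12 over all 5084. The Ctnna1 SD rests on 1 dim probe set that reached the floor only with Wnt3a and gave 0.63, beside 0.09 and 0.01 on the bright ones. That dim probe set also raised the pooled SD of the 6 genes. The sign count for Ctnna1 leaves out its dimmest probe set, at 3.38 and 3.29, which gave -0.09. Every measured cadherin had a difference smaller than the SD of 0.12 over all 5084 genes, and of the catenins only Ctnnal1 exceeded it. Averaging or dropping probe sets therefore decides the sign for Cdh2, Cdh4, Cdh13 and Ctnnd1.

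In RefSeq's gene order for GRCm38.p6, 4 of the 6 cadherins lie on 1 chromosome, in the order Cdh11, Cdh5, Cdh13 and Cdh15. Cdh11 and Cdh5 have 0 protein-coding genes between them. Of these neighbours Cdh11 was at 11.58 in the control and Cdh5 below the floor at 4.89. Cdh5 and Cdh13 are separated by 177 protein-coding genes and Cdh13 and Cdh15 by 61. So these 4 genes form no tight cluster apart from the pair of Cdh11 and Cdh5. On its other side Cdh11 has a further cadherin gene, Cdh8, as its protein-coding neighbour.

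Other catenins and armadillo proteins also differed by less than 1.5-fold. Of 11 such genes 8 were measured, 4 higher and 4 lower, with a median of 0.00038 (0.19 when scaled on the spike-ins) and none past 1.5-fold. Ctnnb1, β-catenin itself, stood at 13.49 in the control and 13.42 with Wnt3a, and its 3 probe sets gave -0.10 to -0.07, which the spike-in scaling would turn positive. Wnt3a acts on the stability of this protein, which an RNA array does not read. Pkp1 (0.16), Pkp2 (-0.15) and Pkp4 (0.12), plakophilins of desmosomes and junctions, differed most.

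Other cadherins were mostly below the floor, but Fat1, named after its values were seen, was bright at 13.12 in the control and 13.11 with Wnt3a. Of 29 further classical and atypical cadherin genes 26 were on the array and 9 were measured, 5 higher and 4 lower, with a median of 0.08 (0.27 when scaled on the spike-ins) and none past 1.5-fold. The largest differences were those of Cdh23 (5.78 in the control, 6.14 with Wnt3a, at least 1.10-fold higher), a cadherin of hair cell links, Dchs1 (-0.19), a planar polarity cadherin, Clstn3 (0.19), a calsyntenin, and Cdh20 (0.11). Cdh1 and Cdh3, the E- and P-cadherin genes of epithelia, are named here after their values were seen. They stood at 3.73 and 5.41 in the control and at 3.86 and 5.50 with Wnt3a, all below the floor. Of 16 epithelial markers, which include Cdh1, 8 were measured, among them Scgb1a1 (8.39 in the control, 5.96 with Wnt3a), Krt19 (7.84 and 8.78) and Cldn3 (7.65 and 7.65). The median over these 8 was 0.09, with 6 on the high side and 2 on the low side. Scgb1a1 and Sftpc were the 2 lower ones, and Sftpc, at 6.31 and 5.24, is named after its values were seen. They differed by -2.43 and -1.07, at least 5.23-fold and 1.24-fold lower when read against the floor. The Scgb1a1 difference was the lowest of all 11397 measured genes, of which 7 were at least 2-fold lower (1 when scaled on the spike-ins). Krt19 was 1.92-fold higher. The levels of the 8 genes summed to 56.8 in the control and 54.8 with Wnt3a. Among them Scgb1a1 and Sftpc reached the floor on the control array only, and Cldn4 on the Wnt3a array only.

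Actin linkers and scaffolds of the junction differed little as well, with Vcl the furthest apart. Of 22 listed genes 19 were measured, 7 higher and 12 lower, with a median of -0.0072 (0.18 when scaled on the spike-ins) and none past 1.5-fold. Vcl encodes vinculin, which binds α-catenin under tension. It stood at 12.36 in the control and 12.63 with Wnt3a, 1.21-fold higher, and its second probe set gave 0.35. Lima1 (-0.19), which encodes the actin binder EPLIN, and Tjp1 (-0.13), which encodes ZO-1, were lower, and Tjp1 would turn positive when scaled on the spike-ins. Iqgap1, a scaffold that binds actin and β-catenin, differed by 0.17 on its brightest probe set and by -0.06 and 0.09 on others.

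Genes of cadherin turnover and signalling differed in both directions. Of 28 listed genes 27 were measured, 16 higher and 11 lower, with a median of 0.02 (0.21 when scaled on the spike-ins). Cdon, an immunoglobulin receptor that associates with N-cadherin in myoblasts, was 1.21-fold higher (12.23 and 12.50, with 0.13 on its other probe set). Cav1 (-0.27), the caveolin gene, was 1.20-fold lower and Zbtb33 (-0.22), which encodes the p120-binding factor Kaiso, 1.16-fold lower.

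With the deposited scaling, a list of factors drawn up as repressors of cadherin genes held 3 genes past 1.5-fold. Of these 1 was on the high side (Snai1) and 2 on the low side (Snai2 and Foxc2), against a background of 1.23% of measured genes. Of 10 listed genes 7 were measured, 4 higher and 3 lower, with a median of 0.06 (0.25 when scaled on the spike-ins, 0.26 with a floor of 8). Snai1 stood at 7.26 in the control and 7.93 with Wnt3a, 1.59-fold higher. Snai2 stood at 11.29 and 10.56, 1.66-fold lower, with -0.66 on its second probe set. Foxc2, a forkhead gene, was 1.51-fold lower (7.11 and 6.51). Tcf4, an E protein gene, was 1.49-fold higher (9.13 and 9.70), and its 6 probe sets gave 0.33 to 0.72. Zeb1, named after its values were seen, was 1.45-fold higher (8.32 and 8.86), with 0.04 on its other probe set at the floor. Scaled on the spike-ins, Snai2 and Foxc2 would not pass 1.5-fold, and Snai1, Tcf4 and Zeb1 would, all higher. That scaling gave 222 genes higher and 17 lower at 1.5-fold among all 11397 measured genes. The values of Snai1 and Snai2 were known when the list was written, so its count is a description. With the deposited scaling, Cdh2, Cdh11 and Cdh15 stayed within 0.1 of their control level on their brightest probe sets. They differed by 0.16, 0.11 and 0.21 when scaled on the spike-ins. A place on the list does not mean that a factor represses Cdh2, Cdh11 or Cdh15. A link between the listed factors and these cadherin genes was not tested.

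**Figure D3:**
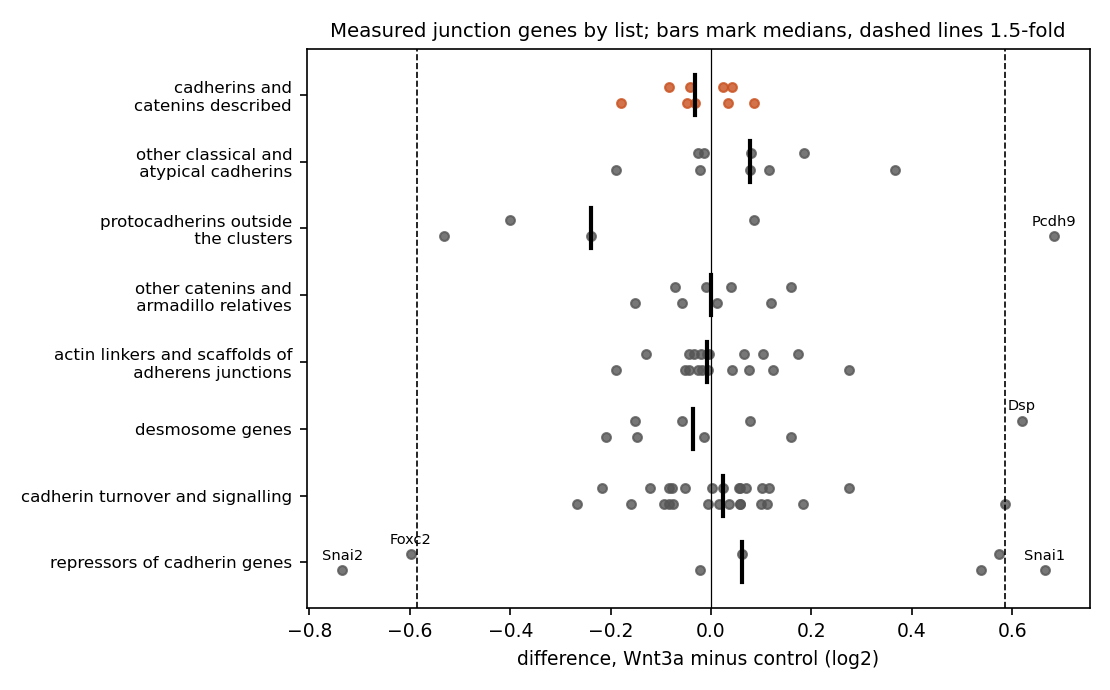
Difference between the arrays (Wnt3a minus control, log2) of each measured gene in 8 lists of junction genes and of factors listed as repressors of cadherin genes. There is 1 point per gene, with black bars at the list medians and dashed lines at 1.5-fold. The cadherins and catenins described here lie between -0.18 and 0.09, while Pcdh9, Dsp, Snai1, Snai2 and Foxc2 lie past 1.5-fold. Scaling on the spike-ins would move every point to the right by 0.19.

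The marker genes of the labelled cell type were present. Of 12 myoblast markers 11 were on the array and all 11 were measured, the brightest being Chrna1 (13.73 in the control, 13.79 with Wnt3a), Myod1 (13.41 and 13.28) and Myf5 (11.96 and 12.45). The median over the 11 was -0.13, with 4 on the high side and 7 on the low side, and summed levels of 126.8 in the control and 125.4 with Wnt3a. Vcam1 (10.60 and 9.97), Myog (10.11 and 9.61) and Met (11.84 and 11.39), named after their values were seen, were the furthest on the low side by brightest probe set. The second probe set of Met gave -0.72, and the 3 of Vcam1 gave -0.63 to -0.51. Vcam1 was 1.55-fold lower, the only 1 of the 11 past 1.5-fold, against a background of 1.23% of measured genes. It would not pass 1.5-fold when scaled on the spike-ins. Cdh2 and Cdh11 are not restricted to myoblasts, so markers of other cells are given beside them. The sums given next cover the measured genes of each list. Of 14 fibroblast markers 3 were measured and all 3 were lower (Col1a2 at 10.53 and 10.46, Fbln1 at 10.46 and 10.41, Pdgfrl at 8.82 and 8.81), with sums of 29.8 and 29.7. Of 12 smooth muscle and pericyte markers 6 were measured, 3 higher and 3 lower, the brightest being Acta2 (12.75 and 13.07), Tagln (10.81 and 10.87) and Notch3 (10.03 and 9.93), with sums of 58.1 and 57.9. Of 12 Schwann and neural markers 6 were measured, 5 higher and 1 lower, the brightest being Tubb3 (8.91 and 9.74), Erbb3 (8.58 and 8.71) and Sox10 (7.35 and 7.43), with sums of 43.9 and 45.0. Of 12 leukocyte markers 5 were measured, 1 higher and 4 lower by brightest probe set, with sums of 32.8 and 32.4. The brightest were Csf1r (6.99 and 6.95), Laptm5 (6.82 and 6.54) and Cd3e (6.54 and 6.79). The other Csf1r probe sets at the floor gave 0.36 each, and the Laptm5 probe sets at the floor ran from -0.28 to 0.21. So the sign for Csf1r and Laptm5 depends on the probe set read. Over all genes of a list on the array, without the floor, fibroblast markers summed to 79.6 in the control and 80.3 with Wnt3a. Smooth muscle and pericyte markers then gave 89.7 and 90.0, and leukocyte markers 67.4 and 68.1. For these lists the direction of the sum depends on the floor. Lyz2, a leukocyte marker at 6.16 and 5.96, counted through the control array alone. Schwann and neural markers gave 62.7 and 63.8. Myoblasts also express several of these marker genes, and the part of other cells in the cadherin levels was not tested.

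**Figure D4:**
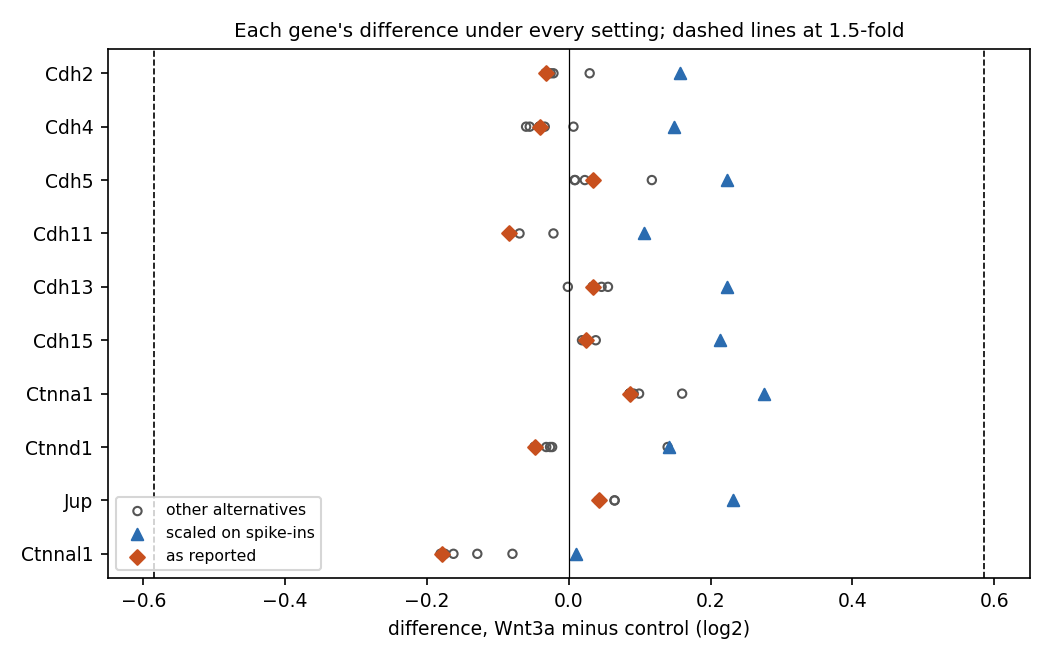
Difference of each of the 10 genes (Wnt3a minus control, log2) as reported (diamonds), scaled on the spike-in controls (triangles) and under the other alternative settings (open circles), with dashed lines at 1.5-fold. Every point lies between -0.18 and 0.28, and the triangles are all above 0.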

How the data were processed

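Gene expression was measured on 2 Affymetrix arrays, 1 per condition. The table the authors deposited holds 1 linear intensity per probe set and array. RMA, affy and limma are named in the submitters' processing notes, without order or settings, and nothing in the sources used here says how the intensities became linear. The 64 control probe sets were set apart. Of the other 45037, GEO's platform annotation assigned 34945 to 1 gene, 932 to several (none of them to a gene described here) and left 9160 unnamed. For 34741 the identifier was found in RefSeq's gene table, which changed no symbol. Values were taken as log2(intensity + 1), and a gene was read by the probe set that was brightest on average. With 1 array per group no test was possible, and genes were counted past 1.5-fold and 2-fold. Genes named are the 10 members, up to 4 with the largest difference in each other list, the 3 brightest of each marker list, and Snai1 and Snai2. 1 gene of the turnover and signalling list that this rule names, with the largest difference of that list, is not reported here. The members and lists were chosen with earlier results of these data known. Alternatives were a pseudocount of 0 or 16, the mean of all probe sets, probe sets of several transcripts left out, no floor, a floor of 8, a median difference of 0, quantile normalization, loess (span 0.3) and spike-in scaling. The procedure was tested on simulated data. Python 3.11.15, numpy 2.4.6, pandas 2.3.3, statsmodels 0.14.6 and matplotlib 3.10.9 were used.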

Additional observations from a re-analysis of the deposited data

How the results depend on the processing

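None of the 10 genes passed 1.5-fold or 2-fold under any of the 10 alternative settings that gave it a value. Cdh4, Cdh5 and Ctnnal1 had none with a floor of 8, and Jup had none without probe sets of several transcripts. Some settings could not change the difference of a gene. The median difference was already 0, and the choice of floor only decides which genes count. Scaling on the spike-in controls moved the median difference of the measured cadherins and catenins from -0.033 to 0.16 and that of all measured genes from -0.0057 to 0.19. In the other 9 settings the median of the cadherins and catenins stayed within 0.12 (the SD between probe sets of a gene) of the reported value. Leaving out probe sets of several transcripts changed Ctnnd1 to 0.14. Over all measured genes, spike-in scaling raised the genes past 1.5-fold to 222 on the high side and cut them to 17 on the low side (92.9% higher, in place of 72.1%), and 49 and 1 at 2-fold (98.0%, in place of 80.6%). A floor of 8 gave 60 genes at least 1.5-fold higher in place of 101, with fewer genes tested, and a pseudocount of 16 or the mean of all probe sets gave 4 at least 2-fold lower in place of 7. The cause of the spike-in shift was not tested. No paired analysis was possible because each condition has 1 array. The number of arrays limits the precision, and Cdh4 lies near the floor of 6 and Cdh5 below it.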

Other observations

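Protocadherins are relatives of the cadherins without catenin-binding tails, and those outside the gene clusters held 1 gene past 1.5-fold, against a background of 1.23% of measured genes. Of 12 genes 5 were measured, 2 higher and 3 lower, with a median of -0.24 (-0.05 when scaled on the spike-ins, 0.22 with a floor of 8). Pcdh9 stood at 8.23 in the control and 8.91 with Wnt3a, 1.61-fold higher, while its other probe sets, below the floor, gave 0.12 and 0.09. Pcdh1 was 1.44-fold lower (7.36 and 6.83) on 1 probe set. Pcdh18 was 1.32-fold lower (7.66 and 7.26), with -0.24 and -0.17 on probe sets below the floor. Pcdh19 was 1.18-fold lower (10.25 and 10.01), with -0.38 and 0.01 on its other probe sets.

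Of 13 desmosome genes 8 were measured, 3 higher and 5 lower, with a median of -0.04 (0.15 when scaled on the spike-ins, -0.18 with a floor of 8). Dsp, which encodes the desmosomal linker desmoplakin, stood at 7.28 in the control and 7.90 with Wnt3a, 1.54-fold higher, and its second probe set gave 0.32 (6.30 and 6.63). Perp, a desmosomal membrane protein gene, was 1.16-fold lower (8.28 and 8.07). Jup, which joins desmosomes as well, differed by 0.04. None of these differences has a replicate check.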
